A study of Arabidopsis thaliana with 8 samples.

Results

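A set of 6 Arabidopsis thaliana genes stood above the wild type (WT) on both arrays of the IBM1 knockout and close to WT on every array that lacks JMJ24. They are ICL (AT3G21720), CHX16 (AT1G64170), AT5G38030, AT5G17760, AT5G39520 and AT5G10580, 6 of 13286 genes that a probe set could be tied to. They were chosen by their GCRMA values on all 8 arrays, so their levels and differences are given as a description, and no test of them is offered as support. Their raised level was only moderate, at percentiles 45.7 to 57.9 of the probe sets on the IBM1 knockout arrays. They lay at percentiles 8.4 to 43.3 on the WT arrays and 7.7 to 45.5 on those lacking JMJ24. The arrays are Affymetrix ATH1 arrays, which hold short probes grouped into 1 or more probe sets per gene, and each of the 6 genes had 1 probe set. The RNA is from untreated Col-0 seedlings, aerial parts only, at an age of 12 days. The 4 genotypes, with 2 arrays each, were WT, 2 single knockouts (JMJ24 knockout and IBM1 knockout) and the JMJ24-IBM1 double knockout. All knockouts are in the Col-0 background, and the labels name neither an allele nor the origin of the 2 samples of a genotype in separate plants or pools. P-values below therefore cover only the spread from sample to sample, part of which may be technical.

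IBM1 is a histone demethylase of the jumonji family that removes methyl groups from a lysine of histone H3 and is known to keep repressive methylation out of transcribed genes. JMJ24 belongs to the same protein family. Plants without IBM1 gain DNA and histone methylation in the bodies of many genes, and expression changes in both directions have been described in such plants. The 6 genes belong to unlike families. ICL encodes isocitrate lyase, an enzyme of the glyoxylate cycle, which lets a germinating seedling turn stored oil into sugar before it lives by photosynthesis. CHX16 is a member of the family of cation/H+ exchangers, and AT5G38030 encodes a transporter of the MATE efflux family. AT5G17760 encodes an ATPase of the AAA type, and AT5G39520 and AT5G10580 encode proteins with domains of unknown function.

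Values are GCRMA values on a log2 scale, so that a difference of 1 is a doubling. Array medians ran from 3.41 to 3.52 and lower quartiles from 2.49 to 2.53. A value at or below the lower quartile of its array is called near background here, since no detection calls were used. Of the 21 green tissue markers 3 were measured, all of them genes of light-harvesting proteins: over the 8 arrays LHCB4.1 lay between 12.56 and 12.76, LHCB4.2 between 12.59 and 12.89, and LHCB4.3 between 6.97 and 7.76. EXPA7, an expansin of root hairs and the one root marker measured, was near background on all 8. None of the 7 seed storage and oil body markers had a named probe set. The probe sets of IBM1 and JMJ24 are unnamed here, so the knockouts were not checked by their own transcripts. Over all 22746 probe sets the difference between replicates of the JMJ24 knockout correlated at -0.31 with that of the double knockout. JMJ24 knockout 1 thus tended to differ from its replicate as double knockout 2 did from its own. With 2 arrays per genotype, the odd array of a pair cannot be told. In bulk tissue, fewer cells of a type and less RNA per cell cannot be told apart. The labels give less total RNA for the IBM1 knockout samples, 24 and 16.2 µg, than for the other 6, which ran from 27 to 45.5 µg, and the part of RNA yield in the differences below was not tested.

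ICL was read against a baseline near background. It measured 2.33 and 2.32 on the WT arrays, 2.33 and 2.35 on the JMJ24 knockout arrays, 3.34 and 3.49 in the IBM1 knockout, and 2.33 and 2.31 in the double knockout. The 6 arrays other than the IBM1 knockout spanned 0.036, and both IBM1 knockout arrays lay at least 0.99 above all of them. The mean was 3.42 ± 0.104 (SD, n = 2) in the IBM1 knockout and 2.33 ± 0.00536 (SD, n = 2) in WT, a difference of 1.09 (SE 0.0554, from the limma fit to all probe sets). All 6 other arrays were near background, so WT, the JMJ24 knockout and the double knockout have no order for ICL. Read against the lower quartile, the IBM1 knockout stood at least 0.91 above WT and at least 0.90 above the double knockout.

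CHX16, the other gene near background on all 6 arrays outside the IBM1 knockout, measured 2.34 and 2.31 in WT, 2.34 and 2.52 on the JMJ24 knockout arrays, 3.20 and 3.14 in the IBM1 knockout, and 2.45 and 2.30 in the double knockout. The 4 arrays without JMJ24 thus spread over 0.218, with JMJ24 knockout 2 and double knockout 1 the higher of each pair, all at values where no order can be read. The IBM1 knockout mean of 3.17 ± 0.0433 (SD, n = 2) was 0.84 (SE 0.0822) above the WT mean of 2.33 ± 0.0243 (SD, n = 2), or at least 0.66 against the lower quartile.

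The MATE transporter gene AT5G38030 was above the lower quartile on all 8 arrays. Its values were 2.91 and 2.80 in WT, 2.68 and 2.67 on the JMJ24 knockout arrays, 3.72 and 3.53 in the IBM1 knockout, and 2.72 and 2.71 in the double knockout. The IBM1 knockout arrays stood highest and the WT arrays next. The double and JMJ24 knockouts came below them and have no order, since they differed by less than the SE. The IBM1 knockout mean was 3.62 ± 0.139 (SD, n = 2), against 2.85 ± 0.0825 (SD, n = 2) in WT, a difference of 0.77 (SE 0.0774). All 4 arrays without JMJ24 lay below both WT arrays, by 0.16 at the mean. Such an arrangement held for 5.39% of all probe sets, and no order of WT and these 2 genotypes is read from it. The JMJ24 and double knockouts differed from WT by -0.18 and -0.14 (SE 0.0774 each). The double and JMJ24 knockouts differed by 0.04 (SE 0.0774).

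AT5G17760, the ATPase gene, was arranged the other way around at its baseline. It measured 2.98 and 2.83 in WT, 3.10 and 3.0 on the JMJ24 knockout arrays, 3.97 and 4.03 in the IBM1 knockout, and 3.04 and 3.03 in the double knockout. All 4 arrays without JMJ24 lay above both WT arrays, by 0.14 at the mean, an arrangement that held for 5.12% of all probe sets. The double knockout values fell between those of the 2 JMJ24 knockout arrays, so these 2 genotypes have no order. The IBM1 knockout mean of 4.001 ± 0.0402 (SD, n = 2) was 1.10 (SE 0.065) above the WT mean of 2.91 ± 0.103 (SD, n = 2) and 0.97 above the double knockout mean of 3.04 ± 0.00556 (SD, n = 2).

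AT5G39520 measured 2.74 and 2.64 in WT, 2.67 and 2.70 on the JMJ24 knockout arrays, 3.79 and 3.75 in the IBM1 knockout, and 2.70 and 2.63 in the double knockout. Outside the IBM1 knockout the genotypes overlapped, and their means of 2.69, 2.69 and 2.67 differed by less than the spread between replicates. The IBM1 knockout stood 1.08 (SE 0.0514) above WT, at 3.77 ± 0.0329 (SD, n = 2). Its lower array lay 1.01 above the highest of the 6 others.

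The values of AT5G10580 were 2.495 and 2.55 in WT, 2.51 and 2.52 on the JMJ24 knockout arrays, 3.67 and 3.70 in the IBM1 knockout, and 2.58 and 2.50 in the double knockout. The 6 arrays outside the IBM1 knockout spanned 0.08, with 2 of them near background, and the 3 genotypes they belong to overlapped. The IBM1 knockout mean of 3.69 ± 0.0229 (SD, n = 2) was 1.16 (SE 0.0433) above the WT mean of 2.52 ± 0.0396 (SD, n = 2), or at least 1.15 against the lower quartile.

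**Figure D1:**
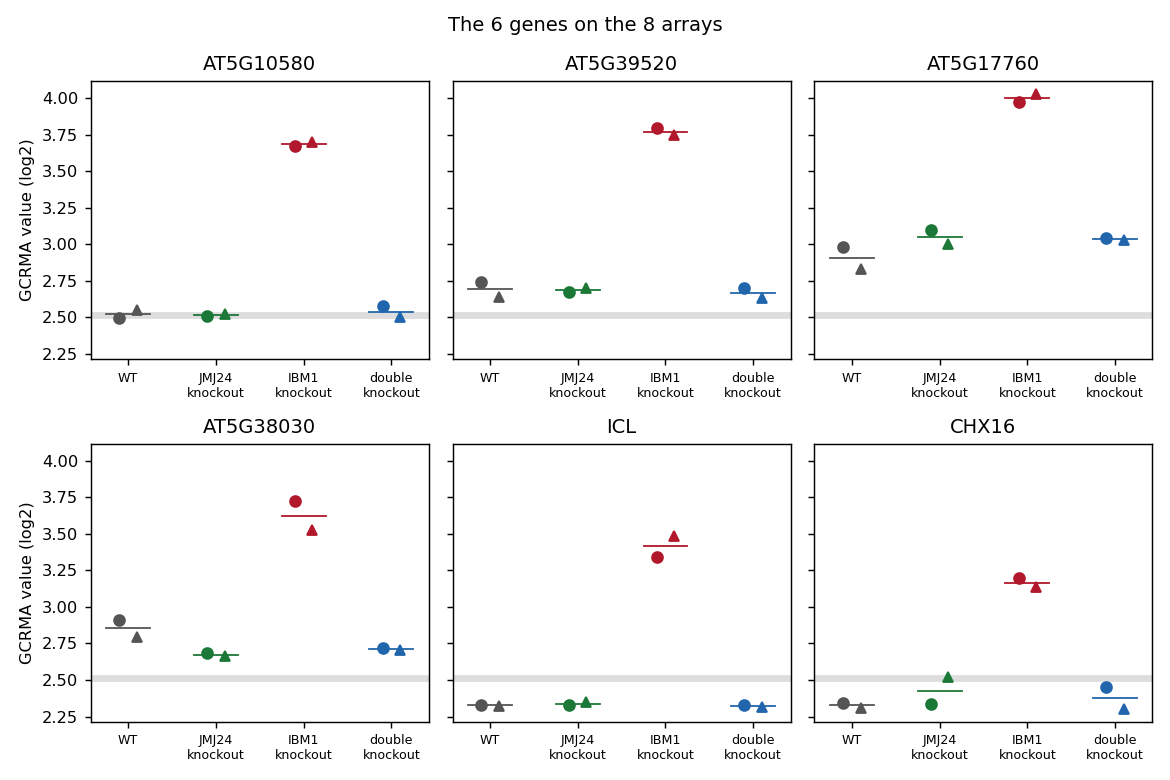
GCRMA value (log2) of each gene on each array, by genotype; circles are replicate 1, triangles replicate 2, horizontal lines the mean of the 2 arrays, and the grey band the range of the arrays' lower quartiles (2.49 to 2.53). In all 6 panels both IBM1 knockout arrays lie above the 6 other arrays, and for ICL and CHX16 those 6 lie at or below the lower quartile.

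Over the 6 genes, the IBM1 knockout minus WT difference had a median of 1.08 and a range of 0.77 to 1.16, against a median of -0.0054 over all 22746 probe sets. The choice of genes fixed the direction of this contrast in advance, so it is no test. AT5G10580, AT5G17760, ICL and AT5G39520 lay within 1.08 to 1.16, with SEs of 0.0433 to 0.065, while CHX16 and AT5G38030 gave 0.84 and 0.77. Since WT was near background for ICL and CHX16, these differences are bounds of at least 0.91 and 0.66, and the 6 have no full order. The 2 IBM1 knockout arrays differed by 0.032 for AT5G10580, 0.046 for AT5G39520, 0.057 for AT5G17760, 0.061 for CHX16, 0.146 for ICL and 0.197 for AT5G38030, against a median of 0.098 over all probe sets. The genes were chosen for a rise on both arrays, so these gaps too are only a description. Neither array was the higher one throughout: replicate 1 was higher for AT5G39520, AT5G38030 and CHX16, and replicate 2 for the other genes.

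Set against the IBM1 knockout, the double knockout stood lower by a similar amount. The differences were -1.15 for AT5G10580, -1.11 for AT5G39520, -1.09 for ICL, -0.97 for AT5G17760, -0.91 for AT5G38030 and -0.79 for CHX16, with a median of -1.03. Both comparisons use the IBM1 knockout arrays. The 2 genotypes without JMJ24 differed from each other by -0.05 to 0.04. Without JMJ24 knockout 1 and double knockout 2, the median for double minus IBM1 knockout was -1.02, and CHX16 gave -0.72.

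**Figure D2:**
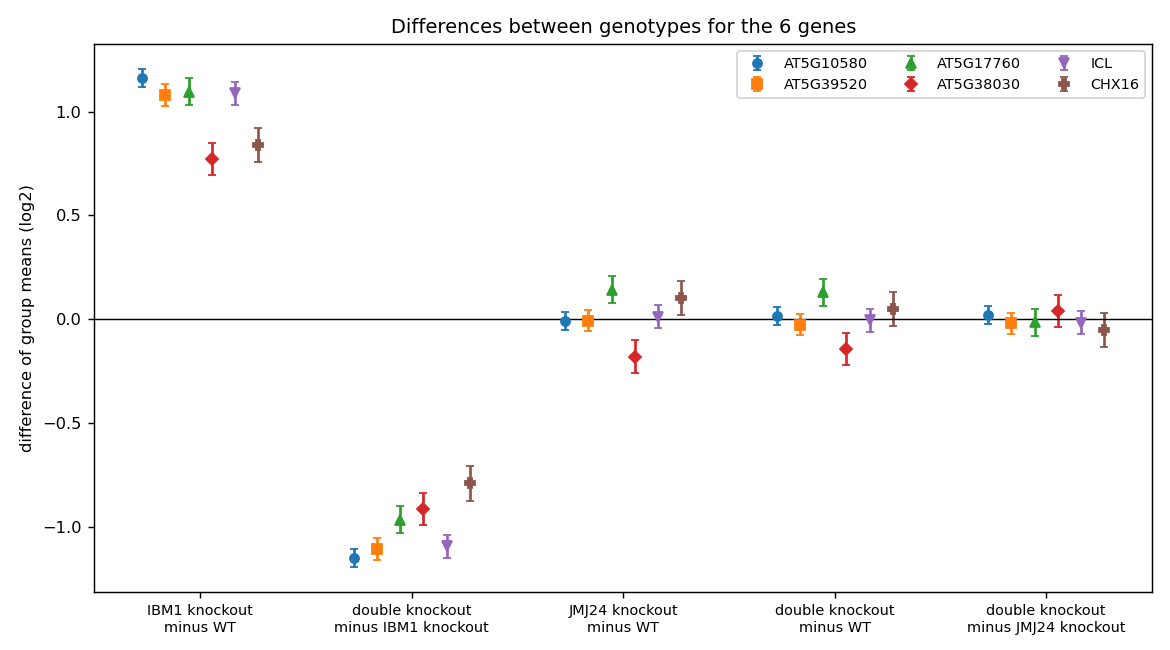
Difference of group means (log2) for the 6 genes in 5 comparisons of genotypes, with the SE of the limma fit as error bars. The 6 genes lie at 0.77 to 1.16 for IBM1 knockout minus WT and at -1.15 to -0.79 for double minus IBM1 knockout; AT5G17760 lies above 0 and AT5G38030 below 0 for both comparisons of a JMJ24-lacking genotype with WT.

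The fit across all probe sets, with limma and Benjamini-Hochberg adjusted p under 0.05, called 0.264% of probe sets as raised by IBM1 loss, the 6 genes among them. It called 0.207% as lower in the double than in the IBM1 knockout, with 5 of the 6 genes, all but CHX16, and 0.0132% for the interaction, with AT5G10580 alone. These contrasts chose the genes, so the counts only place them in the fit and are no test of them. Which arrays entered the fit mattered for the calls: with WT and IBM1 knockout arrays alone the fit called 0 probe sets, and 3562 reached p under 0.05 before adjustment.

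The arrangement itself, both IBM1 knockout arrays above all 6 others, held for 1992 probe sets, or 8.76% of those tested, and the reverse for 7.91%. Ranked by the gap between the lower IBM1 knockout array and the highest other array, AT5G10580 was number 47, AT5G39520 number 59, ICL number 62, AT5G17760 number 87, CHX16 number 149 and AT5G38030 number 150. A gap of at least 0.61, that of AT5G38030, with a range over the 6 other arrays of at most 0.27, that of AT5G17760, was met by 39 probe sets, the 6 genes included. These limits were set from the 6 genes after their values were seen. Of the 39, 22 could be tied to a single gene.

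**Figure D3:**
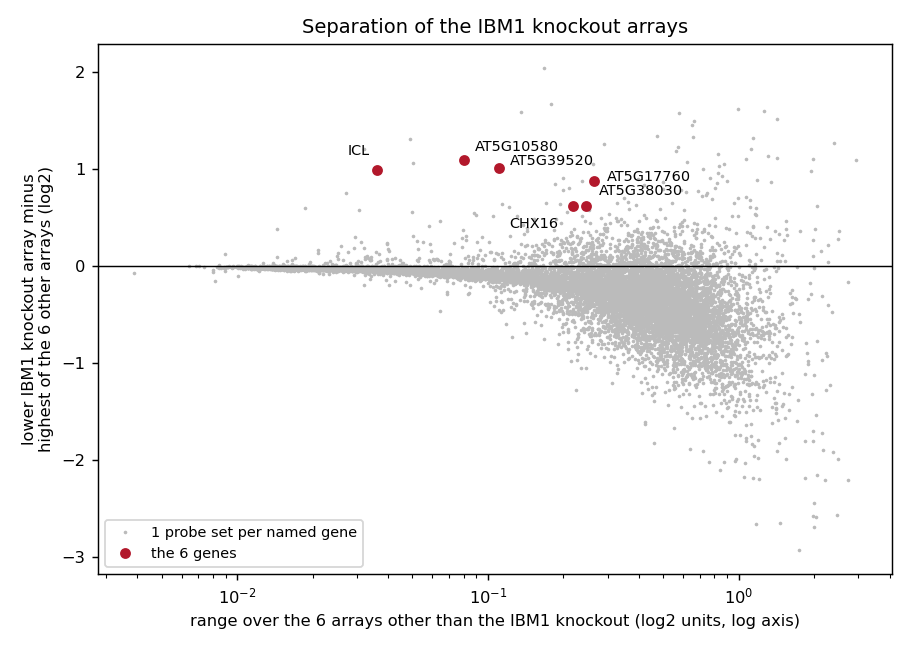
Lower IBM1 knockout array minus the highest of the 6 other arrays (log2) against the range over those 6 arrays (log2 units, log axis), with 1 grey point per named gene and the 6 genes in red. The red points lie between 0.61 and 1.09 on the vertical axis, with ICL at a range of 0.036; grey points also lie among and above them.

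The genes whose values ran most like each of the 6 over the 8 arrays were partly shared. ATC, a relative of the flowering regulator TFL1, was among the 3 best correlated named genes of AT5G10580, AT5G39520, AT5G17760 and ICL, with Pearson's r between 0.9918 and 0.9981. It measured 2.48 and 2.46 in WT, 2.55 and 2.49 on the JMJ24 knockout arrays, 4.18 and 4.29 in the IBM1 knockout, and 2.60 and 2.54 in the double knockout. The correlations span 8 arrays in 4 genotypes, rest on the step between the IBM1 knockout and the rest, and are a description.

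AT4G01920 was among the best correlated genes of AT5G39520, AT5G17760 and ICL, with r between 0.9924 and 0.9977, and stood 0.54 above WT in the IBM1 knockout. AT5G10580 ran close to ICL (r = 0.9968) and to the beta-1,3-glucanase family gene AT4G16260 (r = 0.9961), which was near background on the 6 arrays outside the IBM1 knockout. For AT5G17760 the dirigent protein gene AT3G13650 followed, at 0.9911, and for ICL the gene closest in shape was AT1G06620, at 0.9985, which encodes an oxygenase of the kind that uses iron and oxoglutarate. AT5G38030 had other companions: AT2G18980, a peroxidase gene (r = 0.9928), AT4G23885 (0.9824) and AT1G30160 (0.9814), the last near background on 6 arrays. CHX16 ran closest to AT3G62280 (0.9905), a GDSL lipase gene that was near background on all 8 arrays, AT3G18940 (0.9897) and AT5G39520 (0.9845).

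By size as well as shape, the gene nearest to the mean profile of the 6 was BGLU15, a beta-glucosidase gene, with a root mean square difference of 0.0745 over the 8 arrays. BGLU15 measured 3.15 and 3.13 in WT, 3.23 and 3.05 on the JMJ24 knockout arrays, 4.22 and 4.15 in the IBM1 knockout, and 3.14 and 3.25 in the double knockout. AT3G17050 followed at 0.1091, the cupin family gene AT1G18980 at 0.1157, AT4G39320 at 0.1261 and the plant defensin gene PDF1.2b at 0.1382. Their IBM1 knockout minus WT differences were 1.13, 0.80, 1.03 and 0.75, in that order.

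Whether genes beside the 6 on the chromosome moved too was a comparison that the choice of genes did not use. Up to 3 named and measured genes were taken on each side of every gene, 36 in all, the nearest standing 1 to 16 places away in the gene table and the farthest 19. Of the 36, 0 were called for IBM1 knockout minus WT with limma, where 0.334% of all probe sets were called in either direction. Unadjusted, 9 of the 36 (25%) had p under 0.05, 6 higher and 3 lower, against 14.4% of all probe sets, 1680 higher and 1600 lower. Limma-trend also called 0. The median difference was -0.002, against -0.0054 over all probe sets, and 31 of the 36 lay within 0.5 of 0. On all 8 arrays, those of the IBM1 knockout included, 9 of them were near background. These showed no rise out of it, and a fall could not be seen. The other contrasts also had 0 calls among the 36 with limma, against 0.242% of all probe sets called for double minus IBM1 knockout, 0.00879% for each JMJ24-lacking genotype minus WT, 0% for double minus JMJ24 knockout and 0.0132% for the interaction. An unadjusted p under 0.05 was held by 3 of the 36 (8.33%) for double minus IBM1 knockout, against 11.1% of all probe sets. It was held by 1 (2.78%) for the JMJ24 knockout minus WT, against 4.04%, and by 3 (8.33%) for the double knockout minus WT, against 5.54%. For double minus JMJ24 knockout the share was 2 (5.56%) against 3.35%, and for the interaction 3 (8.33%) against 7.72%.

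The pair of genes directly beside AT5G38030 showed no such step. AT5G38020 measured 2.98 and 2.97 in WT and 3.26 and 2.96 in the IBM1 knockout, and AT5G38035 measured 2.66 and 2.61 in WT and 2.58 and 2.92 in the IBM1 knockout. Their differences of 0.13 (SE 0.0991) and 0.12 (SE 0.115) did not pass with limma (adjusted p = 0.692 and 0.825), and the groups overlapped. AT1G64180, directly after CHX16, measured 2.63 and 2.74 in WT and 2.98 and 2.68 in the IBM1 knockout, a difference of 0.15 that did not pass (limma adjusted p = 0.819).

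None of the other nearest genes passed for IBM1 knockout minus WT. AT5G10560 and AT5G10620, on either side of AT5G10580, differed by -0.18 and -0.40 (limma adjusted p = 0.726 and 0.44). For AT5G39520 they were AT5G39430 and AT5G39560, and for AT5G17760 AT5G17730 and AT5G17780, with differences between -0.01 and 0.03 at values mostly near background. SGP2, a small GTPase gene before ICL, differed by -0.35 (SE 0.363) and the glucosyltransferase gene UGT71B1 after it by -0.07 (SE 0.129). AT1G64150, before CHX16, measured 5.25 and 5.24 in WT and 4.95 and 4.89 in the IBM1 knockout and did not pass either (limma adjusted p = 0.266).

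AT3G21770, a peroxidase gene 6 places after ICL, was the neighbour with the highest difference. It measured 4.59 and 4.57 in WT, 5.17 and 4.36 on the JMJ24 knockout arrays, 6.28 and 6.76 in the IBM1 knockout, and 4.402 and 5.23 in the double knockout. The difference of 1.94 (SE 0.391) did not pass with limma (adjusted p = 0.123), and passed in 1 alternative, the filter on dim probe sets (adjusted p = 0.0483), of 16 that gave adjusted p from 0.0483 to 0.305. The gene falls outside the naming rule and was picked after its values were seen. It was higher on JMJ24 knockout 1 and double knockout 2 than on the other array of each genotype. The other neighbours higher at an unadjusted limma p under 0.05 were AT5G17820 (0.63), AT5G39410 (0.62), AT5G17700 (0.57), AT1G64190 (0.48) and AT5G10630 (0.36). Lower were AT5G10650 (-0.585), AT3G21670 (-0.46) and AT1G64150 (-0.33). None passed with limma, AT1G64190 giving the lowest adjusted p (0.114). Among the 36 neighbours, both IBM1 knockout arrays lay above all 6 others for AT3G21770, AT5G17820, AT5G39410, AT5G17700, AT5G39570 and AT5G38070. This arrangement held for 8.76% of all probe sets. For AT5G39570 the margin was slight, with 9.212 on the lower IBM1 knockout array and 9.21 on double knockout 1. AT5G38070 was near background on all 8 arrays. These genes too were picked by their values.

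**Figure D4:**
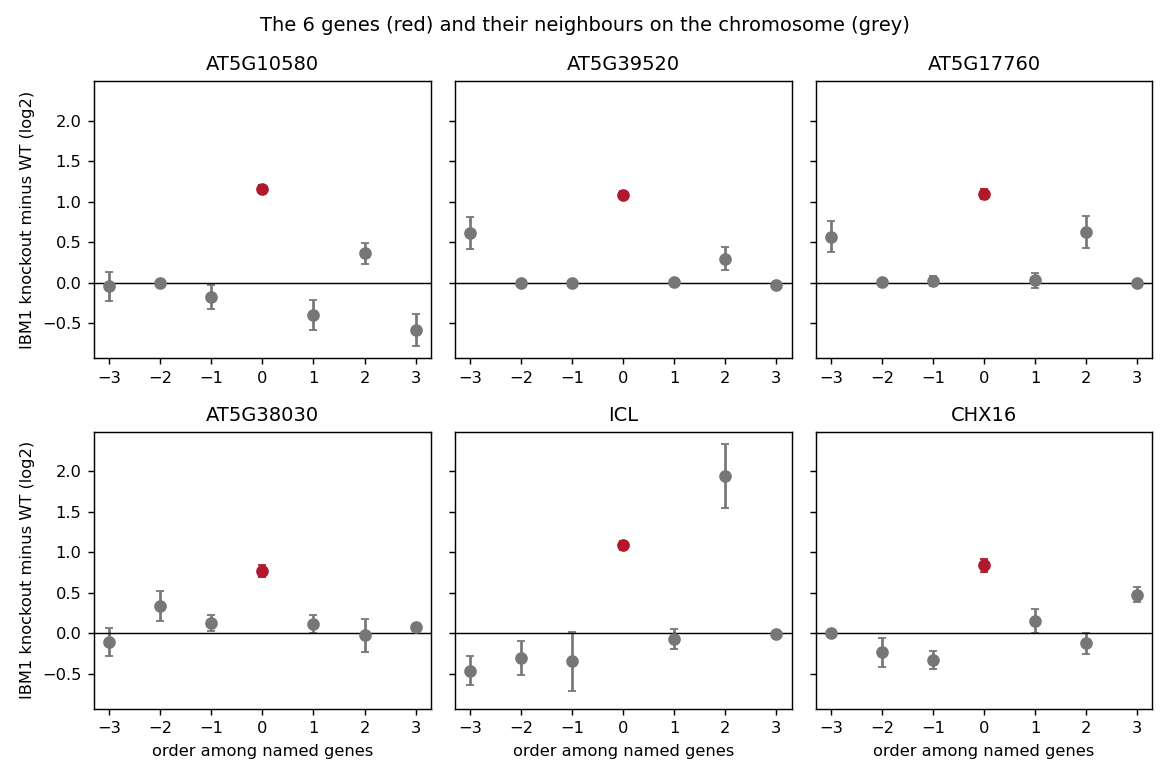
IBM1 knockout minus WT difference (log2, error bars are the SE of the limma fit) for each of the 6 genes (red, position 0) and up to 3 named genes on each side in chromosomal order (grey). The red points lie between 0.77 and 1.16 and the grey points between -0.59 and 1.94, with AT3G21770 at position 2 beside ICL the highest.

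Other genes of the same pathways and families could be read only in part, because many probe sets are unnamed here. Of 10 such genes measured, limma called 0 for IBM1 knockout minus WT, against 0.334% of all probe sets, and 1 (10%) had an unadjusted p under 0.05, against 14.4%. Limma-trend also called 0. Their median difference was -0.01, and 6 of the 10 were near background on all 8 arrays. Limma called 0 of the 10 in the other contrasts too, where it called at most 0.242% of all probe sets. For double minus IBM1 knockout 1 (10%) had an unadjusted p under 0.05, against 11.1% of all probe sets. In the remaining contrasts 0 did, against 3.35% to 7.72% of all probe sets.

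Of the 26 other genes listed for the glyoxylate cycle, beta-oxidation and fatty acid mobilisation, 3 were measured. SDP1, the lipase that starts the breakdown of seed oil, measured 6.35 and 6.42 in WT and 5.86 and 5.96 in the IBM1 knockout, a difference of -0.47 (SE 0.122) that did not pass (limma adjusted p = 0.177). The JMJ24 knockout arrays gave 6.27 and 6.63 and those of the double knockout 6.31 and 6.29. The IBM1 knockout arrays were thus the lowest of the 8 for SDP1, as for 7.91% of all probe sets. For ICL, which was chosen for it, they were the highest. AIM1, an enzyme of beta-oxidation, differed by -0.01 (SE 0.111) and SDP1-LIKE was near background on all 8 arrays.

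Of the cation/H+ exchanger family 5 relatives of CHX16 were measured, all of which are named here. CHX6B, CHX15, CHX19 and CHX21 were near background on all 8 arrays, the IBM1 knockout included, where CHX16 was not. CHX20, an exchanger gene of guard cells, measured 4.68 and 3.52 in WT and 3.31 and 3.38 in the IBM1 knockout, a difference of -0.76 (SE 0.493) that did not pass (limma adjusted p = 0.626) beside WT arrays that lay 1.16 apart. The MATE family gene AT5G52050 was near background on all 8 arrays, and no AAA-type ATPase of the listed kind was measured. WRKY53, the one gene measured of the senescence and sugar starvation list, is a transcription factor gene. It measured 2.74 and 2.97 in WT, 4.23 and 2.64 on the JMJ24 knockout arrays, 3.88 and 2.91 in the IBM1 knockout, and 2.83 and 3.63 in the double knockout. Its difference of 0.54 (SE 0.632) did not pass (limma adjusted p = 0.886). Of the 3 green tissue markers 0 were called with limma or limma-trend, against 0.334% of all probe sets with limma. LHCB4.2 alone had an unadjusted p under 0.05, as did 14.4% of all probe sets. It measured 12.83 and 12.83 in WT and 12.67 and 12.59 in the IBM1 knockout, a difference of -0.20 (SE 0.0514, limma adjusted p = 0.173). Its IBM1 knockout arrays were the lowest of the 8, as for 7.91% of all probe sets. LHCB4.3 differed by 0.12 (SE 0.18) and LHCB4.1 by -0.10 (SE 0.0585). The part of green tissue in the differences of the 6 genes was not tested.

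By locus, 4 of the 6 genes lie on chromosome 5, which holds 22.4% of the named probe sets, 1 lies on chromosome 1 and 1 on chromosome 3. The 4 were picked with their values known, and no coordinates are given, since the deposited values name no genome build.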

How the data were processed

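Total RNA of 8 seedling samples was amplified, biotin labelled and hybridised to ATH1 arrays, per the labels. The deposited values are on a log2 scale, 1 per probe set and array, and the authors made them with GCRMA, which is named in the submitters' processing notes; no version is stated there. There is no depth as in sequencing, and precision is limited by the number of arrays. Of 22810 probe sets, 64 controls were left out and 22746 tested. Names came from the platform annotation through the gene table of TAIR10.1, used only for names and gene order: 13436 probe sets matched 1 gene, and the brightest per gene was kept. The limma package (3.58.1, R 4.3.3) fitted one mean per genotype over the 8 arrays by lmFit and eBayes, with 4 residual degrees of freedom, and Benjamini-Hochberg adjustment ran over all probe sets with a threshold of 0.05; the fit was tested on simulated data.

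The members and lists were chosen with earlier results of these data known. Named were the 6 genes, the nearest named gene on each side, 3 genes per list with the lowest p, the 3 best correlated genes per member and the 5 nearest to the mean profile. Lists were the glyoxylate cycle with beta-oxidation and fatty acid mobilisation, senescence and sugar starvation, 3 families (CHX, MATE, AAA-type ATPases), and markers of seed, root and green tissue. The planned comparison with the closest proteins was not run, since no protein table was given, and for the same reason no sequence is printed. Tried as alternatives were a dim filter that keeps probe sets with a group mean of 5 or more, further quantile normalization, median centring, limma-trend, a fit to the compared groups alone, a replicate block, leaving out each array, and raising values to the lower quartile; 2 more were chosen after seeing the data. The differences between same-numbered replicates correlated between -0.31 and 0.208 over the 6 pairs of genotypes, with 4 pairs above 0.1, WT with the JMJ24 knockout at 0.037 and the JMJ24 with the double knockout at -0.31. Pairing required every pair above 0.1, so the numbers were not used as a block in the main results.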

Additional observations from a re-analysis of the deposited data

Results flagged for a closer look

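The interaction of JMJ24 and IBM1 loss was -1.71 for ATC and -2.21 for AT4G16260 in the limma fit (adjusted p = 0.0274 for both), which put both past the threshold. Both genes were reached through their likeness to genes chosen for this very pattern, so these are values and no test of it. ATC averaged 2.47 in WT, 4.24 with IBM1 lost and 2.57 with both lost, and AT4G16260 averaged 2.32, 4.54 and 2.40. AT4G16260 was near background on all 6 arrays outside the IBM1 knockout, and ATC on both WT arrays and on JMJ24 knockout 2. The size of these interactions is thus not measured exactly.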

How the results depend on the processing

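Of 36 differences of single genes under the 3 alternatives that could move one by over 1 SD between replicates (quantile normalization, median centring and values raised to the lower quartile), 31 moved by less, 5 by more and 0 changed sign. The 31 include values that were fixed in advance or shared. Median centring shifts all genes by the same amount in a comparison, set by the array medians. Raising values to the lower quartile cannot change AT5G39520, AT5G17760 or AT5G38030, which lay above it on all 8 arrays. Nor can it change AT5G10580 for double minus IBM1 knockout. With 2 arrays per genotype, leaving out an array cannot move a difference by more than that SD, so those values are given as ranges only. The median for IBM1 knockout minus WT was 1.08, between 1.03 and 1.11 with each array left out, and 0.99 with values raised to the lower quartile. The median for double minus IBM1 knockout was -1.03, between -1.04 and -1.02 with each array left out, and -0.94 with that floor, which by construction shrinks ICL and CHX16.

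Counts over all probe sets depended on the fit. For IBM1 knockout minus WT the count of 76 became 0 with the compared groups alone, 0 with the replicate block, 0 without JMJ24 knockout 1 and double knockout 2, and 3 with crossed replicate numbers, and ran from 0 (without either WT array) to 165 (without IBM1 knockout replicate 1) with 1 array left out. It was 2 without either JMJ24 knockout array and 19 without either double knockout array. For double minus IBM1 knockout the count of 55 became 6 with the dim filter, 25 with quantile normalization, 0 with the compared groups alone, 0 with the replicate block, 0 without JMJ24 knockout 1 and double knockout 2, and 3 with crossed numbers, and ran from 0 (without either WT or double knockout array) to 161 (without IBM1 knockout replicate 1). It was 3 without either JMJ24 knockout array. Fits with fewer arrays or a block leave fewer residual degrees of freedom, and those with 1 array left out all have the same number. The cause of the changes in count was not tested for any of the alternatives.

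Among the neighbouring genes the count of 0 became 1 with the dim filter, which leaves 9 of the 36. That fit called 82 of 7286 probe sets, against 76 of 22746 in the main fit. In the other alternatives the count of neighbouring genes stayed 0, as did that of the pathway and family genes in every alternative run. In this balanced design a replicate block cannot change a difference of group means, so it bears only on the counts. Signal limits the reading: all 6 genes lay below the array median outside the IBM1 knockout, and ICL and CHX16 lay near background on 6 arrays.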
